A study of Mus musculus with 6 samples.

Results

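The mouse Kruppel-like factor genes Klf2, Klf3, Klf4, Klf6, Klf7, Klf9, Klf10, Klf11 and Klf13, 9 in all, were followed through 6 RNA-seq libraries. They were taken by symbol from a table of read counts for 33924 genes, and all 9 passed the filter on low counts that left 15280 genes. Leukemia 92 and leukemia 1 are primary leukemias of bone marrow with the genotype Mll-Af4/ N-RasG12D, and each gave 2 libraries. Pro-B cells gave 2 libraries and are normal marrow cells of wildtype mice in the gate B220+ CD43+ IgM-, of an age that the labels do not state. The leukemias began as c-Kit+ Sca1+ cells from Mll-Af4 mice 6 to 8 weeks old, kept overnight with lymphoid cytokines. One retrovirus carried Cre and TdTomato and a second one N-RasG12D, and 250000 sorted cells entered each recipient, which had been given 900 rads and also received 200000 wildtype helper marrow cells, so recipients carried normal blood cells as well. The labels do not state whether libraries of a group are separate animals, so the spread between libraries of a group may be technical. In fits of all 6 libraries with a coefficient for each group, p values measure only that spread. Where libraries are summed per leukemia, p values measure the spread between the 2 leukemias and between the 2 pro-B libraries.

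Kruppel-like factors are transcription factors whose zinc fingers at the carboxyl end bind GC-rich and CACCC-containing DNA. Klf2 and Klf4 lie downstream of the kinase ERK5 and MEF2 factors and are linked to quiescence of lymphocytes. Klf6 and Klf10 respond rapidly to growth factors, Klf10 and Klf11 are early genes of TGF-beta signalling, Klf9 is a target of the glucocorticoid receptor, and Klf3 represses through CtBP proteins.

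The promoters of the 4 members called in leukemia against pro-B cells are shown first. Boxes that the family itself can bind are marked, and promoters of members not called hold such boxes too. They are RefSeq sequences of build GRCm38.p6, from 250 bases before to 50 bases after the start, whereas the submitters' processing notes name mm9. Capitals mark the GC box GGGCGG and the CACCC box, on either strand, and overlapping matches were counted.
Klf2, chr8:72318812-72319111, plus strand: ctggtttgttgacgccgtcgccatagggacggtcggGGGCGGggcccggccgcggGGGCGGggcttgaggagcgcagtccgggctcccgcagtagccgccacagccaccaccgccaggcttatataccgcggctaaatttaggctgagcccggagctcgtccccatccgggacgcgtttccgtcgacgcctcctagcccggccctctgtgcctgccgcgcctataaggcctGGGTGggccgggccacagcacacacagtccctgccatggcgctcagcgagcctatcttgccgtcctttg
Klf3, chr5:64803271-64803570, plus strand: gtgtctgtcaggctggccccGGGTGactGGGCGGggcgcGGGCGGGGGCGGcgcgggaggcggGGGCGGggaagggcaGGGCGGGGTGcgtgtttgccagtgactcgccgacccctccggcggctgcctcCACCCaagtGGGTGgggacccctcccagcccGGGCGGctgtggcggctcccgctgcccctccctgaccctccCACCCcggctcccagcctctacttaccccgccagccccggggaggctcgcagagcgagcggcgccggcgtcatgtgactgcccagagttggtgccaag
Klf6, chr13:5861239-5861538, plus strand: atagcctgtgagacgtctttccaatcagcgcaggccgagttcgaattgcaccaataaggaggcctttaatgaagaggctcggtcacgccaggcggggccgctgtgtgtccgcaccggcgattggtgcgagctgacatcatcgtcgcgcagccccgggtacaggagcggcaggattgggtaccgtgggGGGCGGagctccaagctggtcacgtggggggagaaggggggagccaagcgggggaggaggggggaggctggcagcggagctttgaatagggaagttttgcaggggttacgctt
Klf7, chr1:64121340-64121639, minus strand: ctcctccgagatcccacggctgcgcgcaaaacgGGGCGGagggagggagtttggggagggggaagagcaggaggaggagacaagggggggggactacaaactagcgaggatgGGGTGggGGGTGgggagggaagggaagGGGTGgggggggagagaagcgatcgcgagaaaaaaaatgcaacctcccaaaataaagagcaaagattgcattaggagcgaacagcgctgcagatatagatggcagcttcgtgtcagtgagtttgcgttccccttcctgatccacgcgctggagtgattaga
RefSeq promoters were matched for 8 of the 9 members, all but Klf10. Of these 8, 7 held a GC box, as did 35.7% of all 32851 promoters of the same length, and 5 held a CACCC box, against 57.5% of all promoters. The members' promoters were GC-rich, at 58.3% to 77.7% GC against a median of 52.7% over all promoters, and the part of GC content in these box counts was not tested. The Klf3 promoter held 6 GC boxes and 5 CACCC boxes, and 1.35% of all promoters held 6 or more GC boxes. GC boxes numbered 2 in Klf2 and 1 each in Klf6 and Klf7. Of the members not called, Klf4 and Klf11 held 4 each, Klf13 held 3 and Klf9 held 0. The Klf6 promoter held 4 copies of CCAAT on either strand, and 1.06% of all promoters held 4 or more. A MEF2 box was found in the Klf2 promoter alone, 118 bases before the start, and in 3.19% of all promoters. The CArG box and the CRE TGACGTCA, held by 1.63% and 1.79% of all promoters, were in none of the 8 windows.

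Libraries held 22153444 to 27444759 gene counts, and 3 counts in a library equalled 0.111 to 0.140 CPM, the TMM-scaled unit used below. The leukemia 1 libraries stood apart from each other: log2 differences between them had an SD of 1.04, against 0.25 in leukemia 92 and 0.25 in pro-B cells. The 16 granulocyte and monocyte markers summed to 2431 and 1683 CPM in leukemia 92, 616 (replicate 1) and 18931 CPM (replicate 2) in leukemia 1, and 617 and 623 CPM in pro-B cells. Counts of 4 Y-linked genes were 0 and 6 in leukemia 92, 121 and 1205 in leukemia 1, and 0 in each pro-B library. The 15 T and NK markers summed to 10.5 to 77.6 CPM in leukemia and 682 and 681 CPM in pro-B cells. For 8 plasmacytoid dendritic cell markers the sums were 223 to 353 CPM in leukemia and 2704 and 3077 CPM in pro-B cells. None of the markers in these lists was at 0 in every library, and their part in the results below was not tested. In bulk RNA, fewer cells of a type and less RNA per cell cannot be told apart. Of 12 pro-B markers, 1 rose, 2 fell and 9 did not pass in leukemia against pro-B cells (the test is described below), with a median log2 change of -0.29. Their levels summed to 4313 and 4630.2 CPM in leukemia 92, 4239 and 5846 CPM in leukemia 1, and 5469.8 and 4513 CPM in pro-B cells. Dntt, which pro-B cells use to add bases at immunoglobulin joints, was chosen for naming from this list after its values were seen. Its level was 0.0411 and 0 CPM in the leukemia 92 libraries, 0.244 and 1.11 CPM in those of leukemia 1, and 970.1 and 604 CPM in the pro-B libraries.

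Klf2, Klf6 and Klf7 rose and Klf3 fell in leukemia, while Klf4, Klf9, Klf10, Klf11 and Klf13 did not pass the test. Of these calls only Klf3 and Klf6 were also made in both the 3-group fit of 6 libraries and the fit of 4 leukemia libraries as replicates, by edgeR. Klf2, whose leukemia and pro-B libraries overlapped, was lost in the 3-group fit (adjusted p 0.14) and with 4 leukemia libraries as replicates (adjusted p 0.12). Klf7 was lost in the same fits (adjusted p 0.070 and 0.059), and Klf11 was called lower in the 3-group fit (adjusted p 0.0100). For the comparison itself, the libraries of each leukemia were summed, and 2 leukemias were set against 2 pro-B libraries in edgeR, with Benjamini-Hochberg adjustment over all genes and a call at an adjusted p under 0.05. The 3 rises and 1 fall among 9 members stand beside 9.54% of all genes called higher and 10.7% called lower, 20.2% in all. The median log2 change was 0.18 over the members and 0.021 over all genes tested. Every call of this comparison rests on both pro-B libraries, since edgeR called 0 genes with either left out (1185 and 1231 higher, 1460 and 1419 lower when an unadjusted p under 0.05 was asked for). Adjusted p values below are from edgeR unless DESeq2 is named, and values with a library left out are given as the log2 change and its adjusted p. Leaving out a leukemia 1 library removes the difference between that group's libraries from the error of the fits with group coefficients. Far more of all genes then pass, so values that gained a call there are given as the log2 change alone.

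**Figure D1:**
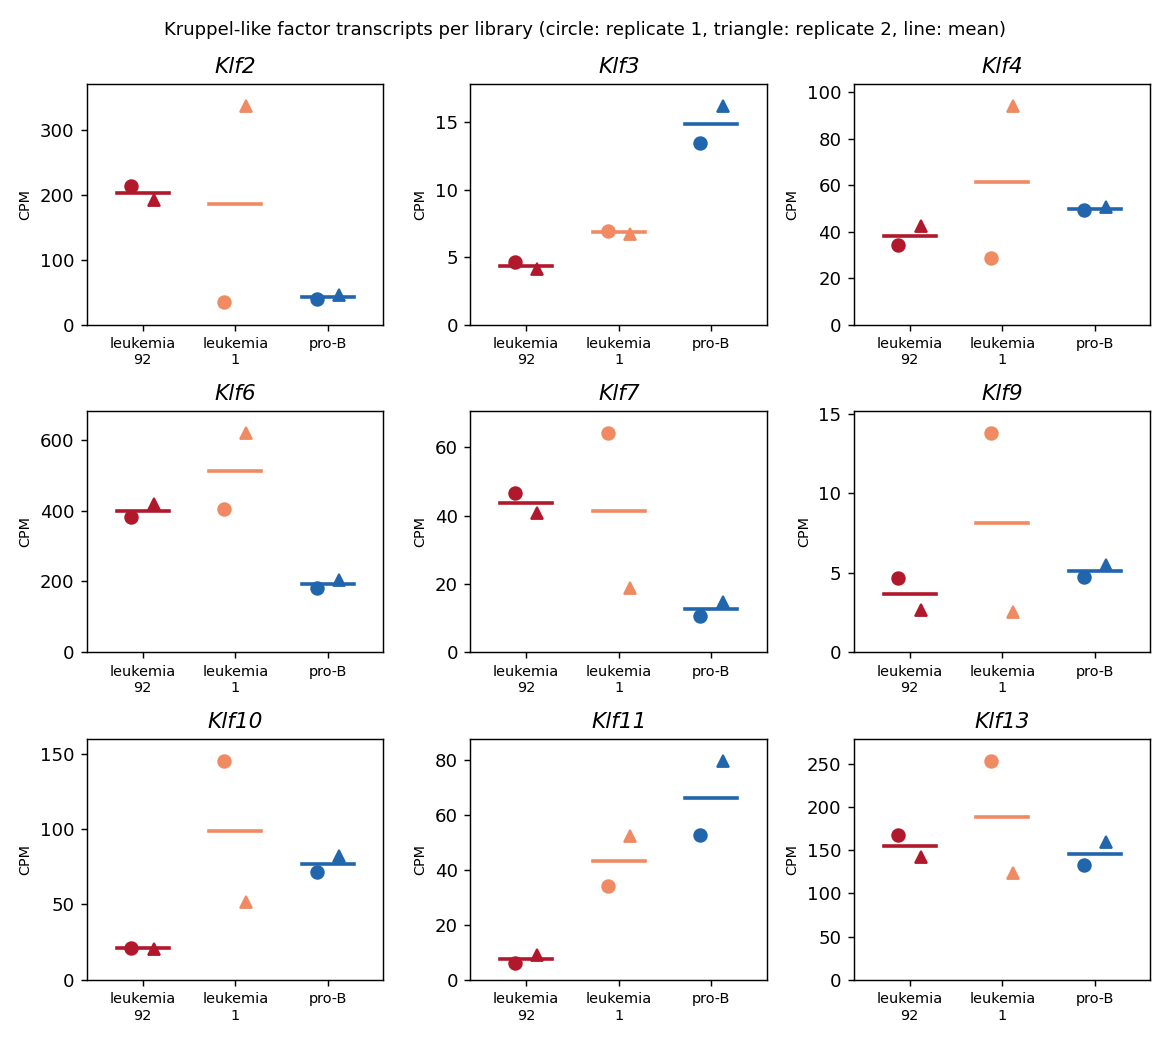
Level of the 9 members in CPM on linear axes from 0, for leukemia 92, leukemia 1 and pro-B cells, with a circle for replicate 1, a triangle for replicate 2 and a line for their mean. Klf6 and Klf7 lie higher in the 4 leukemia libraries than in both pro-B libraries, as do 24.0% of all genes tested. Klf3 and Klf11 lie lower, as do 26.7% of all genes tested. Klf2 spans 35.0 to 338 CPM within leukemia 1.

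Per exon length, Klf6 and Klf2 were the most abundant members in most libraries. Lengths came from coding transcripts of GENCODE M21, and may differ from the annotation behind the counts. On this scale Klf6 stood at 90.5 and 99.1 CPM per kilobase in leukemia 92, 96.1 and 147 in leukemia 1, and 43.0 and 48.2 in pro-B cells. Klf2 stood at 116 and 104 CPM per kilobase in leukemia 92, 19.0 and 183 in leukemia 1, and 21.8 and 24.8 in pro-B cells. Klf6 ranked first in both pro-B libraries and in leukemia 1 replicate 1, where Klf2 ranked behind Klf13 and Klf10 too, and Klf2 ranked first in the other 3 libraries. Klf10 made up 2.17% and 2.13% of the summed level per length in leukemia 92, 17.2% and 3.28% in leukemia 1, and 13.6% and 13.4% in pro-B cells. The share of Klf11 was 0.598% and 0.863% in leukemia 92, 3.77% and 3.13% in leukemia 1, and 9.40% and 12.2% in pro-B cells.

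**Figure D2:**
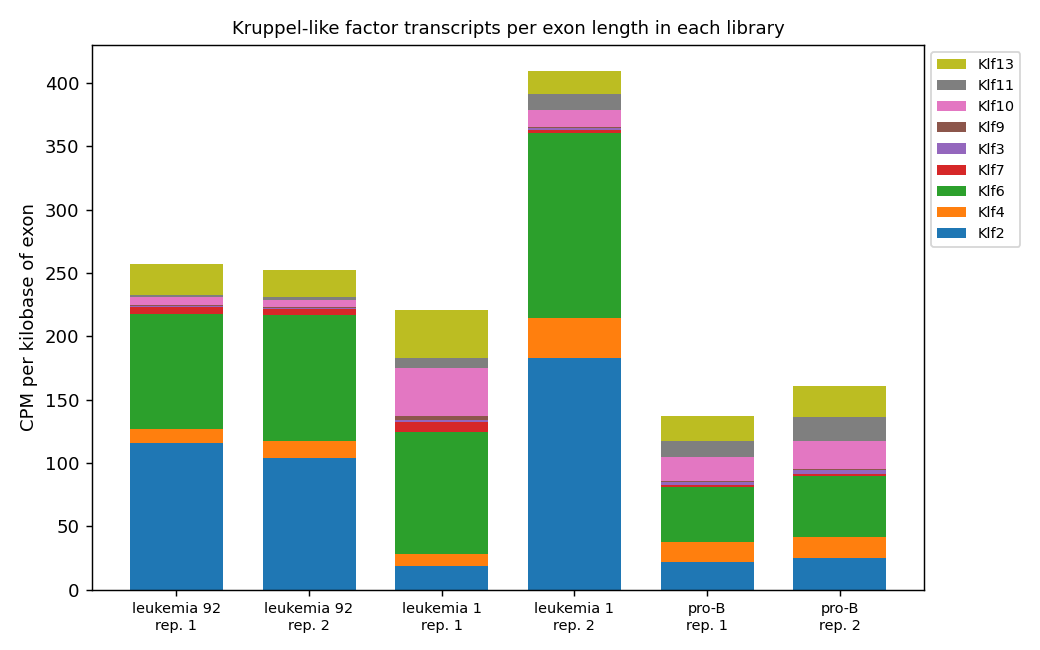
Stacked bars of CPM per kilobase of exon for the 9 members in each library, with leukemia 92 first, then leukemia 1 and pro-B cells. The Klf2 segment at the bottom reaches 183 in leukemia 1 replicate 2 and 19.0 in its replicate 1, and the Klf6 segment is larger in each of the 4 leukemia libraries than in either pro-B library.

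Klf6 is a growth factor-induced factor described as a tumour suppressor and an activator of Cdkn1a. It was measured at 382 and 419 CPM in the leukemia 92 libraries, 406 and 619.6 CPM in those of leukemia 1, and 182 and 204 CPM in the pro-B libraries. All 4 leukemia libraries lay above both pro-B libraries, as for 24.0% of all genes tested. Klf6 rose in the summed comparison (log2 change 1.25, SE 0.16, adjusted p 0.020), a call that held without any single leukemia library. With pro-B libraries left out the value was 1.15, p 0.24 without replicate 1 and 1.32, p 0.21 without replicate 2. In a fit of all 6 libraries, where both leukemias share the pro-B libraries, Klf6 rose in leukemia 92 (log2 change 1.06, SE 0.23, adjusted p 0.028) and in leukemia 1 (log2 change 1.41, SE 0.23, adjusted p 0.021). The first of these calls was lost without leukemia 92 replicate 1 (1.07, p 0.14), leukemia 92 replicate 2 (0.95, p 0.16), pro-B replicate 1 (0.97, p 0.18) or pro-B replicate 2 (1.14, p 0.15). That in leukemia 1 was lost without leukemia 92 replicate 1 (1.35, p 0.078), leukemia 92 replicate 2 (1.35, p 0.079), pro-B replicate 1 (1.33, p 0.18) or pro-B replicate 2 (1.49, p 0.15).

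Klf7 is best known from neuronal development. For Klf7, the leukemia 92 libraries held 46.5 and 40.9 CPM, those of leukemia 1 held 64.1 and 18.7 CPM, and the pro-B libraries held 10.7 and 14.5 CPM. The leukemia libraries all lay above the pro-B libraries, and those of leukemia 1 differed 3.43-fold. Klf7 rose in the summed comparison (log2 change 1.75, SE 0.22, adjusted p 0.020), and the call was lost without leukemia 1 replicate 1 (1.34, p 0.16), pro-B replicate 1 (1.52, p 0.19) or pro-B replicate 2 (1.97, p 0.15). It was also lost with the 4 leukemia libraries taken as replicates (1.75, p 0.059). In the 6-library fit neither leukemia 92 (log2 change 1.79, SE 0.60, adjusted p 0.081) nor leukemia 1 (log2 change 1.72, SE 0.60, adjusted p 0.11) passed. With 1 leukemia 1 library left out, the leukemia 92 change was 1.80 without replicate 1 and 1.76 without replicate 2. The leukemia 1 change was then 0.56 and 2.31. In such a fit the remaining leukemia 1 library is assumed to vary like the other groups.

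Klf2 controls the traffic and quiescence of lymphocytes. It was at 214 and 192 CPM in the leukemia 92 libraries, 35.0 and 338 CPM in those of leukemia 1, and 40.2 and 45.8 CPM in the pro-B libraries. Leukemia 1 replicate 1 lay below both pro-B libraries and replicate 2 above every other library, 9.65-fold apart. The summed comparison called Klf2 higher (log2 change 2.22, SE 0.14, adjusted p 0.0087), but summing removes the difference between those libraries from the error. The call was lost without leukemia 1 replicate 2 (1.50, p 0.32), pro-B replicate 1 (2.10, p 0.14) or pro-B replicate 2 (2.29, p 0.14), and with the 4 leukemia libraries as replicates (2.18, p 0.12). In the 6-library fit, where that difference counts, Klf2 passed neither in leukemia 92 (log2 change 2.24, SE 1.01, adjusted p 0.16) nor in leukemia 1 (log2 change 2.12, SE 1.01, adjusted p 0.20). For leukemia 92 the change was 2.24 without leukemia 1 replicate 1 and 2.20 without leukemia 1 replicate 2. For leukemia 1 the sign turned with the library: the value was 2.97 without replicate 1 and -0.34 without replicate 2. Replicate 2 is also the library with 18931 CPM of granulocyte and monocyte markers, whose part was not tested.

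Klf4 drives monocyte differentiation and restrains the cell cycle in B cells. For Klf4, the leukemia 92 libraries held 34.2 and 42.2 CPM, those of leukemia 1 held 28.7 and 94.2 CPM, and the pro-B libraries held 49.2 and 50.4 CPM. Leukemia 1 replicate 2 lay above both pro-B libraries and the other 3 leukemia libraries below them. The groups thus overlapped, and Klf4 did not pass (log2 change 0.018, SE 0.25, adjusted p 0.97). Without leukemia 1 replicate 2 the change was -0.57, p 0.17. Within the 6-library fit the leukemia 92 change did not pass (log2 change -0.38, SE 0.55, adjusted p 0.64). It was -0.38 without leukemia 1 replicate 1 and -0.43 without leukemia 1 replicate 2. The leukemia 1 change did not pass either (log2 change 0.30, SE 0.55, adjusted p 0.73), and was 0.91 without replicate 1 and -0.84 without replicate 2.

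Klf3, a repressor with a role in B-cell development, was at 4.61 and 4.11 CPM in the leukemia 92 libraries, 6.95 and 6.69 CPM in those of leukemia 1, and 13.4 and 16.2 CPM in the pro-B libraries. These levels rest on 112 and 88 counts in leukemia 92, 171 and 181 in leukemia 1, and 363 and 416 in pro-B cells. Every leukemia library lay below both pro-B libraries, as for 26.7% of all genes tested, and the libraries of each leukemia lay close together. Klf3 fell in the summed comparison (log2 change -1.41, SE 0.31, adjusted p 0.049), and the call was lost without leukemia 1 replicate 1 (-1.41, p 0.067), leukemia 1 replicate 2 (-1.40, p 0.062), pro-B replicate 1 (-1.56, p 0.32) or pro-B replicate 2 (-1.29, p 0.41). It fell in leukemia 92 (log2 change -1.77, SE 0.22, adjusted p 0.0069) and in leukemia 1 (log2 change -1.12, SE 0.22, adjusted p 0.029). The leukemia 92 call was lost without leukemia 92 replicate 1 (-1.89, p 0.079), leukemia 92 replicate 2 (-1.72, p 0.084), pro-B replicate 1 (-1.90, p 0.071) or pro-B replicate 2 (-1.63, p 0.090). The leukemia 1 call was lost without leukemia 92 replicate 1 (-1.18, p 0.097), leukemia 92 replicate 2 (-1.18, p 0.097), pro-B replicate 1 (-1.25, p 0.18) or pro-B replicate 2 (-0.98, p 0.25). Leukemia 92 and leukemia 1 did not differ past the threshold (log2 change -0.65, SE 0.22, adjusted p 0.16). That change was -0.61 without leukemia 1 replicate 1 and -0.67 without leukemia 1 replicate 2.

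Klf11, a TGF-beta-induced repressor, was the one member edgeR called between the leukemias. It was at 6.29 and 8.88 CPM in the leukemia 92 libraries, 34.0 and 52.3 CPM in those of leukemia 1, and 52.7 and 79.8 CPM in the pro-B libraries. Every leukemia library lay below the pro-B libraries, with the higher leukemia 1 library close to the lower pro-B library. Klf11 fell in leukemia 92 against pro-B cells (log2 change -3.13, SE 0.36, adjusted p 0.0060), a call lost without leukemia 92 replicate 1 (-2.94, p 0.067), leukemia 92 replicate 2 (-3.43, p 0.055) or pro-B replicate 2 (-2.80, p 0.055). In leukemia 1 it did not pass (log2 change -0.62, SE 0.33, adjusted p 0.25), nor in the summed comparison (log2 change -1.39, SE 0.87, adjusted p 0.31). Klf11 was lower in leukemia 92 than in leukemia 1 (log2 change -2.51, SE 0.36, adjusted p 0.044), in a test that called 3.09% of all genes, 1.82% higher and 1.27% lower in leukemia 92. That call was lost without leukemia 92 replicate 1 (-2.27, p 0.43), leukemia 92 replicate 2 (-2.75, p 0.31), pro-B replicate 1 (-2.51, p 0.19) or pro-B replicate 2 (-2.51, p 0.19), and it held without either leukemia 1 library.

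Klf10, the other TGF-beta early gene, is also induced by growth factors. For Klf10, the leukemia 92 libraries held 21.4 and 20.6 CPM, those of leukemia 1 held 145 and 51.5 CPM, and the pro-B libraries held 71.4 and 82.1 CPM. Both leukemia 92 libraries lay below all others, and the leukemia 1 libraries lay on either side of the pro-B level. Klf10 fell in leukemia 92 (log2 change -1.87, SE 0.50, adjusted p 0.047), a call lost without leukemia 92 replicate 1 (-1.94, p 0.22), leukemia 92 replicate 2 (-1.88, p 0.23), pro-B replicate 1 (-1.97, p 0.17) or pro-B replicate 2 (-1.77, p 0.20). In leukemia 1 it did not pass (log2 change 0.36, SE 0.49, adjusted p 0.64), and the value was -0.58 without replicate 1 and 0.88 without replicate 2. The leukemias did not differ past the threshold in edgeR (log2 change -2.23, SE 0.51, adjusted p 0.086), while DESeq2 gave an adjusted p of 3.0e-04. The edgeR change between the leukemias was -1.28 without leukemia 1 replicate 1 and -2.79 without leukemia 1 replicate 2.

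Klf13, an activator of Ccl5 in T cells, was at 167 and 142 CPM in the leukemia 92 libraries, 253 and 124 CPM in those of leukemia 1, and 132 and 159 CPM in the pro-B libraries. The groups overlapped and Klf13 did not pass (log2 change 0.23, SE 0.16, adjusted p 0.35). For Klf9, the leukemia 92 libraries held 4.65 and 2.66 CPM, those of leukemia 1 held 13.8 and 2.51 CPM, and the pro-B libraries held 4.70 and 5.46 CPM. Leukemia 1 held both the highest and the lowest Klf9 level, and Klf9 did not pass (log2 change 0.18, SE 0.45, adjusted p 0.79). In leukemia 1 against pro-B cells both genes turned with the library left out. Klf9 was -1.02 without replicate 1 and 1.40 without replicate 2, and Klf13 -0.24 and 0.75.

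**Figure D3:**
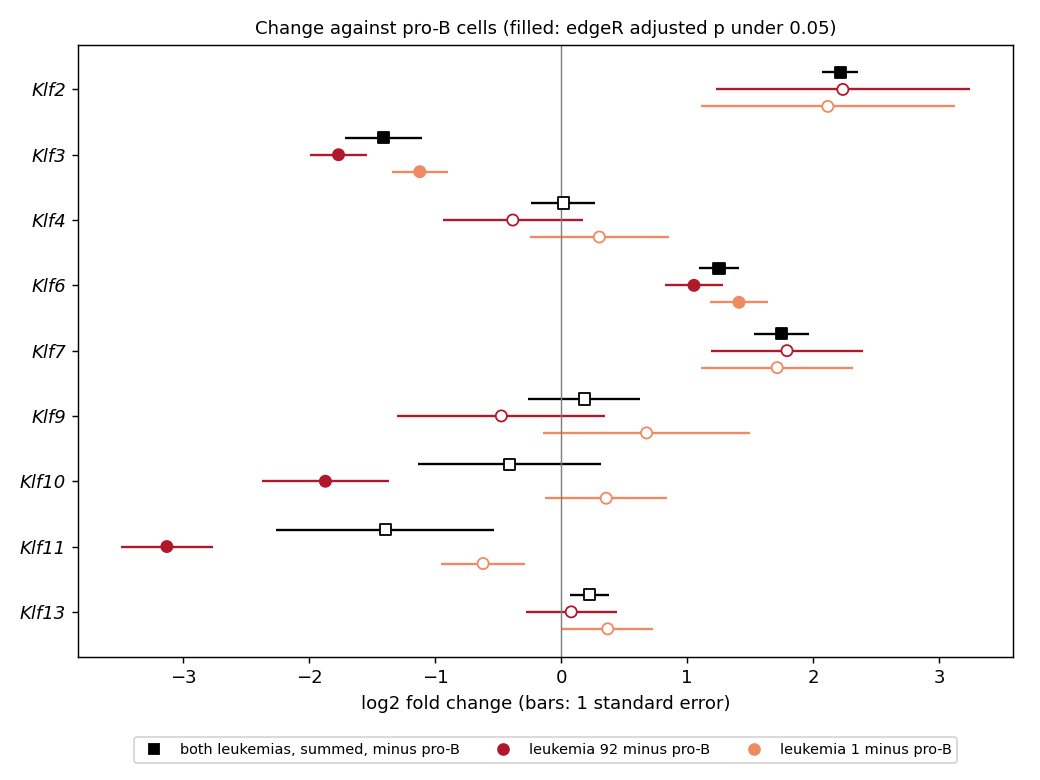
Log2 change of the 9 members against pro-B cells with bars of 1 SE, for both leukemias summed (black squares) and for leukemia 92 and leukemia 1 (circles), filled where the edgeR adjusted p was under 0.05. Klf3 and Klf6 are filled in all 3 comparisons, Klf2 and Klf7 for the summed leukemias alone, and Klf10 and Klf11 for leukemia 92 alone.

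Leukemia 92 had 1 member higher and 3 lower than pro-B cells, where 14.7% of all genes were called higher and 16.7% lower (31.4% in all). Leukemia 1 had 1 higher and 1 lower, where the shares were 9.55% and 10.7% (20.3% in all). Between the leukemias edgeR called Klf11 alone, and DESeq2 called both Klf11 (adjusted p 4.0e-09) and Klf10 (adjusted p 3.0e-04), all lower in leukemia 92. With either tool 0 members were higher in leukemia 92, where edgeR called 1.82% of all genes higher and 1.27% lower. With the edgeR p left unadjusted, 0 members passed 0.05 as higher in leukemia 92 and 3 as lower. Of all 14979 genes, 1834 passed as higher and 1925 as lower in the same way.

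Within leukemia 1 the members split between the libraries. Replicate 2 exceeded replicate 1 by 9.65-fold for Klf2, 3.29-fold for Klf4, 1.54-fold for Klf11 and 1.53-fold for Klf6. Replicate 1 exceeded replicate 2 by 5.48-fold for Klf9, 3.43-fold for Klf7, 2.82-fold for Klf10 and 2.04-fold for Klf13, and Klf3 was 1.04-fold apart. The libraries of leukemia 92 were 1.04-fold to 1.74-fold apart over the members, and those of pro-B cells 1.03-fold to 1.51-fold. The granulocyte and monocyte sum and the Y-linked counts differed between the same libraries, and their part in this split was not tested.

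**Figure D4:**
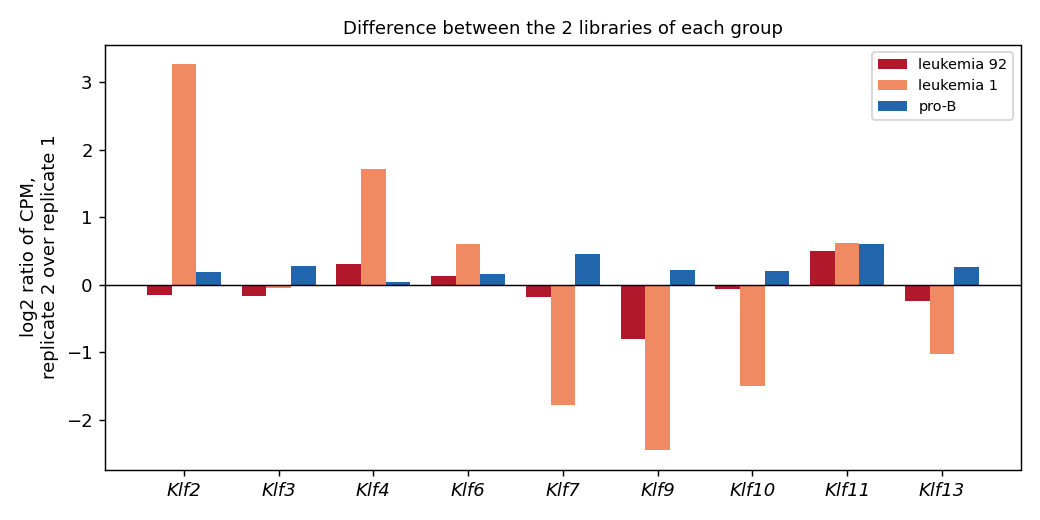
Log2 ratio of CPM in replicate 2 over replicate 1 for each member in leukemia 92, leukemia 1 and pro-B cells. The leukemia 1 bars run from a 9.65-fold excess in replicate 2 for Klf2 to a 5.48-fold excess in replicate 1 for Klf9, while the other groups stay within 1.74-fold.

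The table holds 8 other Klf genes, of which 5 entered the summed comparison and 1 fell. This was Klf12, a repressor, with 0 counts in each leukemia 92 library, 0 and 2 in leukemia 1, and 77 and 77 in pro-B cells. The ratio of leukemia to pro-B cells was 0.00702 (95% exact interval 0.000843 to 0.0258, counting error only), with an adjusted p of 0.020. Klf8 was at 1.23 and 0.888 CPM in the leukemia 92 libraries, 8.13 and 11.1 CPM in those of leukemia 1, and 11.0 and 10.2 CPM in the pro-B libraries. Klf8, which Klf3 represses in mouse erythroid cells, fell in leukemia 92 against pro-B cells (log2 change -3.32, SE 0.32, adjusted p 0.0038) and was lower there than in leukemia 1 (log2 change -3.17, SE 0.32, adjusted p 0.027). The first call was lost without leukemia 92 replicate 2 (-3.14, p 0.051), pro-B replicate 1 (-3.26, p 0.053) or pro-B replicate 2 (-3.37, p 0.051), and the second without leukemia 92 replicate 1 (-3.41, p 0.34), leukemia 92 replicate 2 (-2.93, p 0.29), pro-B replicate 1 (-3.17, p 0.19) or pro-B replicate 2 (-3.17, p 0.19). Klf14 had 26 and 19 counts in leukemia 92, 0 and 1 in leukemia 1, and 0 in each pro-B library. It was at least 17.3-fold higher in leukemia 92 than in pro-B cells, with a floor of 3 counts over the pro-B group. Klf16 was at 23.4 and 25.5 CPM in the leukemia 92 libraries, 48.4 and 26.4 CPM in those of leukemia 1, and 25.1 and 24.2 CPM in the pro-B libraries (log2 change 0.31, adjusted p 0.37). Klf1 and Klf5 reached at most 1.09 CPM in a library, Klf15 had 1 count in each pro-B library and 0 elsewhere, and Klf17 had 0 in all libraries. Sp factors bind the same GC boxes: 4 of 9 were tested, and Sp4 (log2 change -1.40, adjusted p 0.017) and Sp3 (log2 change -0.74, adjusted p 0.044) fell. Both calls were lost without leukemia 1 replicate 2, Sp4 at -1.09, p 0.10 and Sp3 at -0.46, p 0.36. Sp3 was also lost in the 3-group fit of 6 libraries (adjusted p 0.14), where Sp4 kept its call (adjusted p 0.040).

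Of 17 upstream regulators 16 were tested, 2 rose and 2 fell, with a median log2 change of 0.18. Mef2c, a factor that binds the MEF2 box, rose: the leukemia 92 libraries held 954 and 928 CPM, those of leukemia 1 held 1588 and 496 CPM, and the pro-B libraries held 262 and 285 CPM (log2 change 1.85, adjusted p 0.0085). The TGF-beta receptor gene Tgfbr2 rose (log2 change 1.21, adjusted p 0.030), and Smad3, which carries its signal, fell (log2 change -1.16, adjusted p 0.015). Nr3c1, the glucocorticoid receptor, fell too (log2 change -0.68, adjusted p 0.048). With leukemia libraries left out, the Mef2c call was lost without leukemia 1 replicate 1 (1.42, p 0.084), and that of Tgfbr2 without leukemia 1 replicate 1 (0.57, p 0.35) or leukemia 1 replicate 2 (1.69, p 0.077). The Nr3c1 call was lost without leukemia 1 replicate 1 (-0.92, p 0.12), leukemia 1 replicate 2 (-0.47, p 0.16) or leukemia 92 replicate 2 (-0.66, p 0.060). In the 3-group fit of 6 libraries, Tgfbr2 (adjusted p 0.21) and Nr3c1 (adjusted p 0.14) lost their calls, while Mef2c and Smad3 kept theirs. With the replicate number as a block in that fit, the Mef2c call was lost too (adjusted p 0.071). None of the 3 ubiquitin ligases of KLF proteins was called by edgeR or DESeq2, nor did any reach an unadjusted p under 0.05 in edgeR.

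Of 13 corepressors and coactivators 2 rose and 1 fell. Both that rose are partners of Klf3. Ctbp2 was at 20.4 and 17.2 CPM in the leukemia 92 libraries, 18.0 and 31.7 CPM in those of leukemia 1, and 5.78 and 5.85 CPM in the pro-B libraries (log2 change 1.92, adjusted p 0.018). For Fhl3, the leukemia 92 libraries held 41.3 and 34.3 CPM, those of leukemia 1 held 17.5 and 16.7 CPM, and the pro-B libraries held 6.04 and 5.46 CPM (log2 change 2.28, adjusted p 0.048). The Fhl3 call was lost without leukemia 1 replicate 1 (2.28, p 0.062) or leukemia 92 replicate 2 (2.36, p 0.051). The histone acetyltransferase gene Kat2b fell (log2 change -0.71, adjusted p 0.031).

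Of 18 known targets of the family 17 were tested, 5 rose and 4 fell, with a median log2 change of -0.090. Cdkn1a encodes the cell cycle inhibitor p21, a target of Klf4 and Klf6, and was at 410.3 and 376 CPM in the leukemia 92 libraries, 525 and 276 CPM in those of leukemia 1, and 36.6 and 25.0 CPM in the pro-B libraries (log2 change 3.68, adjusted p 0.010). Lgals3, which Klf3 represses in mice, also rose: the leukemia 92 libraries held 125 and 85.3 CPM, those of leukemia 1 held 67.8 and 191 CPM, and the pro-B libraries held 12.2 and 13.8 CPM (log2 change 3.20, adjusted p 0.0074). Plaur (log2 change 2.71, adjusted p 0.019), Ccnd1 (log2 change 1.99, adjusted p 0.044) and Bcl2l1 (log2 change 1.63, adjusted p 0.019) rose as well. Itgb7, an integrin gene under Klf2 control in T cells, fell (log2 change -2.17, adjusted p 0.0085), as did Eng (log2 change -2.86, adjusted p 0.015), Thbd (log2 change -1.70, adjusted p 0.020) and Ccnb1 (log2 change -0.91, adjusted p 0.047). Eng and Thbd are also endothelial genes. Calls lost without leukemia 1 replicate 1 were those of Ccnd1 (1.97, p 0.062), Bcl2l1 (1.39, p 0.11) and Ccnb1 (-0.79, p 0.13), and that of Itgb7 was lost without replicate 2 (-2.82, p 0.089). Ccnb1 also lost its call without leukemia 92 replicate 2 (-0.92, p 0.050). In the 3-group fit of 6 libraries the Itgb7 call was lost (adjusted p 0.075).

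S1pr1, a Klf2 target and the receptor for lymphocyte egress from tissue, was chosen for naming after its values were seen. It was at 0.164 and 0.140 CPM in the leukemia 92 libraries, 2.64 and 2.18 CPM in those of leukemia 1, and 30.1 and 29.7 CPM in the pro-B libraries. Every leukemia library lay below both pro-B libraries, but S1pr1 did not pass in the summed comparison (log2 change -4.56, SE 1.27, adjusted p 0.080). It was lower in leukemia 92 than in leukemia 1 (log2 change -3.94, SE 0.27, adjusted p 0.023), a call lost without leukemia 92 replicate 1 (-4.05, p 0.34), leukemia 92 replicate 2 (-3.82, p 0.27), pro-B replicate 1 (-3.94, p 0.18) or pro-B replicate 2 (-3.94, p 0.18).

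Immediate early genes, which respond rapidly to stimulation like Klf6 and Klf10, were counted beside the members. Of 14 tested 7 rose and 0 fell in edgeR, with a median log2 change of 1.74, and DESeq2 called 10 higher and 1 lower. Their summed level was 4498 and 4156 CPM in leukemia 92, 2124 and 4199 CPM in leukemia 1, and 1537 and 1542 CPM in pro-B cells. Those that rose were Atf3 (log2 change 3.84, adjusted p 0.023), Egr1 (log2 change 3.25, adjusted p 0.011), Egr2 (log2 change 2.84, adjusted p 0.015), Fosb (log2 change 2.33, adjusted p 0.017), Nr4a1 (log2 change 2.30, adjusted p 0.027), Fos (log2 change 1.99, adjusted p 0.048) and Ier2 (log2 change 1.71, adjusted p 0.013). The Nr4a1 call was lost without leukemia 1 replicate 1 (2.08, p 0.072), and that of Fos without leukemia 1 replicate 2 (1.64, p 0.30) or leukemia 92 replicate 2 (2.07, p 0.053). Of 6 glucocorticoid response genes 2 rose. Tsc22d3 was at 383 and 331 CPM in the leukemia 92 libraries, 321 and 423 CPM in those of leukemia 1, and 66.2 and 69.3 CPM in the pro-B libraries (log2 change 2.44, adjusted p 0.0065). Ddit4 rose (log2 change 2.16, adjusted p 0.015), a call lost without leukemia 1 replicate 1 (1.77, p 0.12). With the replicate number as a block in a fit of 6 libraries, the calls of Fos (adjusted p 0.15) and Ddit4 (adjusted p 0.063) were lost.

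Markers of other cells were counted in the same comparison. Of 16 granulocyte and monocyte markers 3 rose, against 1 without leukemia 1 replicate 2. Of 15 T and NK markers 6 fell, against 12 without that library. Of 8 plasmacytoid dendritic cell markers 6 fell. The erythroid and platelet list (6 of 10 tested, 3 fell) summed to 2.06 to 8.91 CPM in leukemia and 48.6 and 115 CPM in pro-B cells. The endothelial and stromal list (8 of 10 tested, 3 fell) summed to 4.11 to 18.5 CPM in leukemia and 38.8 and 45.9 CPM in pro-B cells.

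The genes most like each member were found by the root mean square difference of centred log2(CPM + 0.5) over the 6 libraries, given in parentheses as a description over points that share groups. Klf2 was nearest to Actn1 (0.18) and Raet1c (0.22), Klf3 to Tapbpl (0.095) and Lmo4 (0.10), and Klf4 to Astl (0.11) and Jazf1 (0.12). Klf6 was nearest to Alg14 (0.080) and Vpreb3 (0.11), Klf7 to B4galt5 (0.13) and Mef2c (0.15), and Klf9 to Pank3 (0.16) and D3Ertd254e (0.17). The nearest genes were Irf1 (0.088) and Aspm (0.19) for Klf10, Arc (0.26) and Fam46a (0.30) for Klf11, and Rab5a (0.058) and Gpkow (0.074) for Klf13. Klf11 had the most distant nearest gene of the 9 members, and Klf13 the closest.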

How the data were processed

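The deposited values are counts of reads per gene in 6 libraries, unnormalised whole numbers as the file shows. The submitters' processing notes list STAR 2.4, HTSeq 0.6.1, DESeq2 and mm9 without saying what each did. No source used here gives the annotation or strand setting, so overlapping genes could not be told apart. Left out were 5 entries that name no gene (34.0% to 39.6% of a library's summed entries).

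Leukemia against pro-B cells used counts summed per leukemia, and the other comparisons a fit of 6 libraries with 1 coefficient for each group. The tool was edgeR 4.0.16 (R 4.3.3), with a filterByExpr minimum of 10, TMM scaling and the robust quasi-likelihood test. SE was derived from F. Floors and intervals cover counting error alone. Alternatives were DESeq2 1.42.0, median-ratio size factors, no filter, each library left out, a replicate block, a 3-group fit and 4 leukemia libraries as replicates. On simulated data (14979 genes), 4.55% of 2-fold, 44.6% of 4-fold and 80.0% of 16-fold changes in leukemia against pro-B cells were recovered, and 8 unchanged genes were called. The simulation changed 200 genes and gave both leukemias the same mean, so it held no spread between leukemias beyond that between libraries. Recovery in the real comparison may therefore differ.

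Members and lists were chosen with earlier results of these data known. All 159 list entries matched the table, and single values of some are not reported here. By rule, the text names the members, the other Klf genes, genes of the regulator, partner, target and state lists called in leukemia against pro-B cells, and the 2 genes nearest each member. Marker genes and others named beyond it were chosen after their values were seen.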

Additional observations from a re-analysis of the deposited data

Results flagged for a closer look

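A lone far value was looked for among the 4 leukemia libraries in 37 genes, where chance marks about 1 in 20. Klf6 in leukemia 1 replicate 2, at 620 CPM, lay far from the other 3, at 382 to 419 CPM. Klf12 in the same library, at 0.074 CPM, was the one value above 0, but it rests on 2 counts, under the floor of 3, and any count beside zeros is marked in this way.

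Leukemia 92 differed from leukemia 1 in 6 of 85 genes in the direct edgeR test. Log2 changes were -2.51 for Klf11, -3.17 for Klf8, -3.94 for S1pr1 and -1.07 for Foxo1, an activator of Klf2 in lymphocytes, all lower in leukemia 92. Fhl3 (1.14) and Ccnd1 (0.96) were higher in leukemia 92. Each of these calls was lost without any 1 library of leukemia 92 or pro-B cells, and held without either library of leukemia 1.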

How the results depend on the processing

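Of the members' log2 changes under all alternatives, 279 kept direction and call, 48 lost the call, 29 gained it and 22 changed sign. Median-ratio size factors and no filter changed no member's call.

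In leukemia against pro-B cells 1458 genes were higher and 1631 lower. DESeq2 called 2351 higher and the 3-group fit 2605 lower. With 1 library left out the ranges were 0 to 1544 and 0 to 1725 genes, and 0 to 3 and 0 to 1 members. The block, the 3-group fit and 4 leukemia libraries as replicates called 1, 1 and 1 members higher, and the block and the 3-group fit 2 and 2 lower, Klf11 (block -1.87, p 0.0073) beside Klf3.

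Leukemia 92 against pro-B cells (2198 higher, 2498 lower) gave 1597 lower with the block. With 1 library left out the ranges were 279 to 4994 and 190 to 5965 genes, and 0 to 3 and 0 to 4 members, and DESeq2 called 3 members higher. Leukemia 1 against pro-B cells (1431 and 1607) gave 701 and 738 with the block, and 0 members lower in edgeR (2 at an unadjusted p under 0.05). Leaving out 1 library gave 0 to 4580 and 0 to 5061 genes, and 0 to 5 and 0 to 3 members, and DESeq2 called 2 members higher. Leukemia 92 against leukemia 1 (273 and 190) gave 1325 and 1351 with 2 members lower in DESeq2. The block gave 0 and 0 in edgeR with 0 members lower (1583, 1459 and 2 at an unadjusted p under 0.05). Leaving out 1 library gave 0 to 3909 and 0 to 4224 genes, and 0 to 2 and 0 to 6 members. Where 1 library of a group is left, it is assumed to vary like the other groups.

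Signs changed with a library left out, with these log2 ranges. In leukemia against pro-B cells, Klf9 ran from -0.68 to 0.76, Klf13 ran from -0.041 to 0.48, Klf4 ran from -0.57 to 0.42 and Klf10 ran from -1.07 to 0.084. In leukemia 92 against pro-B cells, Klf13 ran from -0.088 to 0.22. In leukemia 1 against pro-B cells, Klf9 ran from -1.02 to 1.40, Klf10 ran from -0.58 to 0.88, Klf13 ran from -0.24 to 0.75, Klf2 ran from -0.34 to 2.97 and Klf4 ran from -0.84 to 0.91. In leukemia 92 against leukemia 1, Klf2 ran from -0.73 to 2.53, Klf9 ran from -1.90 to 0.56, Klf13 ran from -0.71 to 0.33, Klf4 ran from -1.30 to 0.41 and Klf7 ran from -0.55 to 1.23. In leukemia against pro-B cells, Klf4 was -0.15 and Klf9 -0.18 with the block, and Klf4 -0.039 in the 3-group fit. The cause was not tested.

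Replicate numbers are not shown to pair samples: replicate differences correlated at -0.16, 0.061 and -0.034 between the 3 pairs of groups. Depth limits Klf3, Klf9 and the sparse Klf genes most.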
